A study of Mus musculus with 6 samples.

Results

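HOX cluster genes encode homeodomain transcription factors that give cells an address along the head-to-tail axis. In the mouse they lie in 4 clusters, A on chromosome 6, B on chromosome 11, C on chromosome 15 and D on chromosome 2, and the genes of a cluster are numbered by paralog group from 1 at the end used toward the head to 13 at the end used toward the tail. The genes described here are all rows of the deposited array table whose annotation gives exactly 1 gene symbol starting with Hoxa, Hoxb, Hoxc or Hoxd and a number. This rule found 32 genes among 17213 rows, 8 in cluster A, 10 in B, 8 in C and 6 in D, and each gene had 1 row. The RefSeq table holds 39 protein-coding HOX genes, and the 7 others are not analysed here. A row shared by Hoxd4 and Hoxd3 and a row shared by Hoxa3 and Hoxaas3 carry several symbols and were left out by the rule.

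RNA came from N2A cells, a line grown from a mouse neuroblastoma, a tumour of the sympathetic nervous system lineage. One group of 3 arrays had received an empty vector and the other group of 3 arrays a short hairpin RNA (shRNA) against PTB, the polypyrimidine tract binding protein made from Ptbp1, an RNA-binding repressor of many exons used in neurons. By their labels the samples are biological replicates of this line, about 80% of the protein was lost on western blots, and the control carried no hairpin, so that PTB loss and other effects of a hairpin cannot be told apart. Cells of both groups were otherwise grown alike, and whether the replicates came from separate deliveries of the vector is not stated in the labels.

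Within a cluster, HOX genes are opened in turn from the head end to the tail end, helped by retinoic acid and CDX factors and held shut elsewhere by Polycomb complexes. HOX proteins bind DNA together with cofactors of the TALE class, the PBX, MEIS and PKNOX proteins. In the spinal cord and trunk the middle paralog groups set the identity of motor neurons, and sympathetic neurons arise from trunk neural crest at those levels.

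The clusters also hold microRNAs, which sit among the genes described below. They are shown because miR-196 lies between Hoxc10 and Hoxc9, both genes with signal, and is known in the mouse to direct the cleavage of Hoxb8 RNA. The mature RNAs fall into 2 seed groups, and capitals mark the seed, bases 2 to 8 (RefSeq, GRCm38.p6).
mmu-miR-196a-5p: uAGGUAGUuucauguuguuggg
mmu-miR-196b-5p: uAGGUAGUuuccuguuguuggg
mmu-miR-10a-5p: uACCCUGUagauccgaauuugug
mmu-miR-10b-5p: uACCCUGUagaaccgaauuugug
The sequence of miR-196a-5p is encoded at chr11:96265187-96265208, plus strand, between Hoxb13 and Hoxb9, and again at chr15:102973365-102973386, plus strand, between Hoxc10 and Hoxc9. The gene of miR-196b-5p lies between Hoxa9 and Hoxa10, at chr6:52230129-52230150 on the minus strand. That of miR-10a-5p is at chr11:96317186-96317208, plus strand, inside the span of Hoxb3, and that of miR-10b-5p at chr2:74726074-74726096, plus strand, inside the spans of Hoxd3 and Hoxd4. No row was named for these microRNAs, so their levels were not analysed here.

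The values are linear array signals (arbitrary units), 1 per gene-level row, and their totals per array ran from 9098056 to 12509077. Because the table has no detection call, a signal level was taken on each array as the 95th percentile of 620 rows of odorant, vomeronasal and taste receptor genes, which this cell line is not expected to use. The level was 83.2, 78.3 and 72.2 for empty vector and 107, 74.0 and 81.1 for the hairpin samples, highest on PTB shRNA array 1. A HOX gene is said to have signal in a group when it was above the level on all 3 arrays of that group. Different rows have different probes, so signals of different genes are not amounts of RNA that can be set against each other.

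The knockdown and the cell type were read from the same arrays. Ptbp1 signals of 3387, 4203 and 4404 in controls stood against 1307, 1040 and 1957 in hairpin cells, a log2 difference of -1.51 ± 0.25 (SE; adjusted p = 0.0402, limma). Ptbp2, the neuronal paralog that PTB keeps low, rose by 0.96 ± 0.10 (adjusted p = 0.0288). Both calls ended when any 1 array was left out. Of 15 measured neuroblastoma lineage markers 12 had signal in both groups, Ret, Stmn2, Elavl4 and Phox2a having the highest. Over all rows 57.8% had signal in empty vector and 57.6% with PTB shRNA, and 1.36% were called higher. Gata3, a transcription factor gene of this lineage, was called higher (175 ± 33.2 to 328 ± 8.19, SD, n = 3; adjusted p = 0.0384). After quantile normalization, where 2.94% of all rows were called higher, Elavl4 was called higher as well (adjusted p = 0.0335). The median difference of the 15 lineage markers was 0.04, and 0.08 after quantile normalization, with 0 called lower in either. Phox2a and Ret had negative differences that did not pass, -0.53 (adjusted p = 0.181) and -0.22 (adjusted p = 0.346). After quantile normalization Phox2a was at -0.32 and Ret at 0.08. The neurofilament genes Nefl and Nefm and Th, the gene of the first enzyme of catecholamine synthesis, had no signal. Of the markers of other cells, 0 of 10 fibroblast, 0 of 8 leukocyte and 0 of 10 epithelial genes had signal in either group. Pdgfra, a fibroblast marker, was nevertheless called higher, from a mean of 36 to 102 (adjusted p = 0.0342), and the summed fibroblast markers ran from 290 to 387 in empty vector and from 367 to 610 in PTB shRNA; their part in the results below was not tested. Among 7 glial markers Olig2 had signal in both groups and Olig1 in PTB shRNA, and among 8 muscle markers Ckm had it in empty vector.

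Signal was found in clusters B and C and was sparse elsewhere. In empty vector cells 5 of the 32 HOX genes had signal, Hoxb7, Hoxb8, Hoxc6, Hoxc9 and Hoxc10, beside 57.8% of all rows that did. In PTB shRNA cells 7 had it, the same 5 with Hoxc8 and Hoxa2 added, against 57.6% of all rows. By cluster the counts in empty vector were 0 of 8 for A, 2 of 10 for B, 3 of 8 for C and 0 of 6 for D, and with PTB shRNA they were 1, 2, 4 and 0. By position, 5 of the 14 genes in paralog groups 6 to 10 had signal in empty vector and 6 with PTB shRNA. In groups 1 to 3 the count was 0 of 6 and then 1, for Hoxa2. Groups 4 to 5, with 6 genes, and groups 11 to 13, with 6, had none. The edges of groups 6 to 10 match the outermost genes with signal in clusters B and C, Hoxc6 and Hoxc10. The counts by position are thus a description and test nothing. No gene of clusters A or D in groups 6 to 10 had signal. These counts depend on the level: at the 99th percentile of the receptor rows Hoxb8, Hoxc9 and Hoxc10 were the 3 genes with signal in each group.

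**Figure D1:**
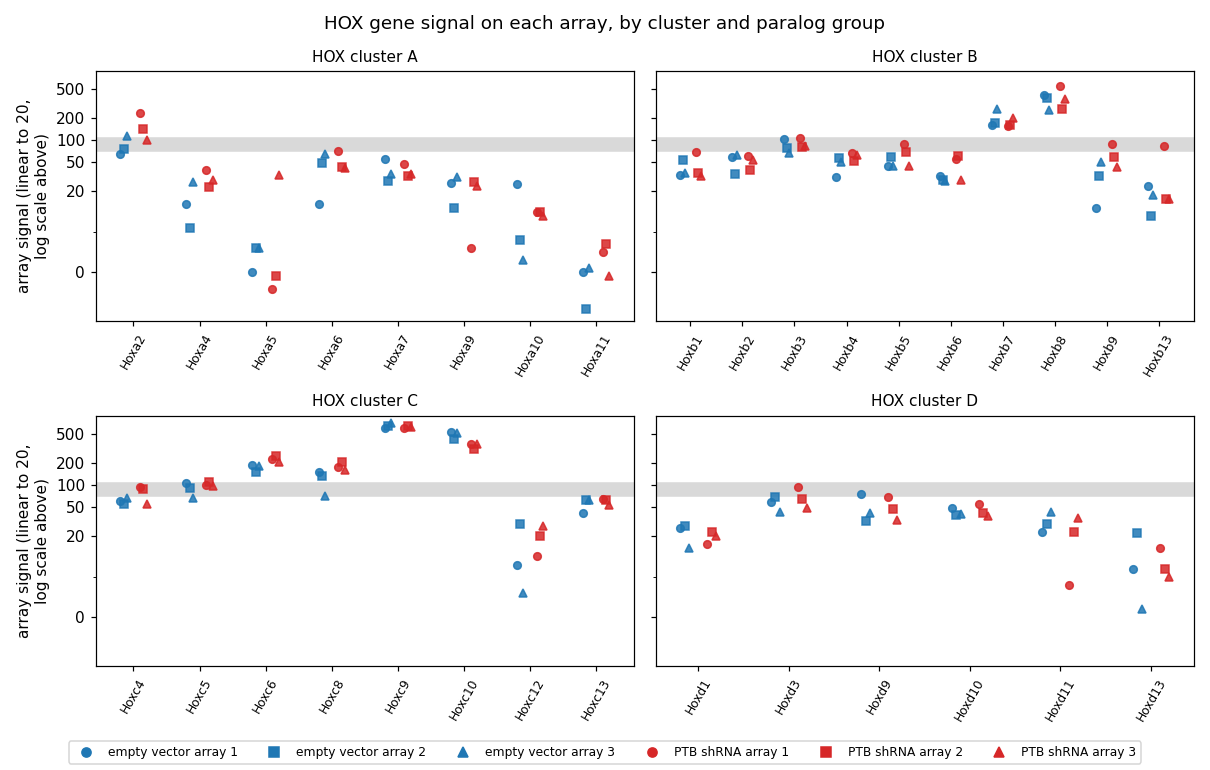
Signal of each of the 32 HOX genes on each array, in 4 panels by cluster and ordered by paralog group, on an axis that is linear up to 20 and logarithmic above. Blue points are empty vector and red points PTB shRNA, with a marker shape for each replicate number, and the grey band spans the signal levels of the 6 arrays, 72.2 to 107. Only Hoxb7, Hoxb8, Hoxc6, Hoxc9 and Hoxc10 lie above the band on all 6 arrays.

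Within clusters B and C most genes with signal lay next to another one, whereas Hoxa2 was the only such gene of cluster A. Hoxb8 and Hoxb7 adjoin each other in the RefSeq order, with Hoxb9 on one side and Hoxb6 on the other, and neither of these flanking genes was above the level on any array. In cluster C the genes with signal with PTB shRNA formed the unbroken run Hoxc10, Hoxc9, Hoxc8 and Hoxc6. In empty vector Hoxc6 was cut off from Hoxc9 by Hoxc8, which fell short on array 3 alone, with 71 against a level of 72.2. On the tail side Hoxc12 (6 to 29 over the 6 arrays) and Hoxc13 (42 to 64) stayed under the level throughout, and Hoxc11 between them and Hoxc10 is not analysed here.

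Hoxc9, which in the mouse sets thoracic motor neuron identity, had the highest HOX signal on every array. It measured 606, 645 and 710 on the control arrays against 601, 650 and 627 on the PTB shRNA arrays, or 5.62 to 9.84 times the signal level of its array. The groups overlapped, and the log2 difference of PTB shRNA minus empty vector was -0.06 ± 0.09 (SE, 95% interval -0.29 to 0.17; adjusted p = 0.738). Its mean of 654 ± 52.5 (SD, n = 3 arrays) with empty vector lay above 70.7% of all rows and its mean of 626 ± 24.5 with PTB shRNA above 73.0%. After quantile normalization of the arrays the difference was positive, at 0.14 (adjusted p = 0.369).

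Hoxc10, a lumbar motor neuron gene, was the row of lowest p among the 32. It measured 535, 426 and 513 on the control arrays against 365, 313 and 373 on the PTB shRNA arrays. Every PTB shRNA value was under every empty vector value, with means of 491 ± 57.6 and 350.3 ± 32.6 (SD, n = 3). The log2 difference was -0.47 ± 0.13 (SE, 95% interval -0.78 to -0.16), which did not pass over all genes tested (adjusted p = 0.0918, limma). With the dimmest 50% of rows left out it passed, at an adjusted p of 0.0229, and after quantile normalization it was -0.31 (adjusted p = 0.195).

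Hoxc8, used in brachial motor neurons, had values of 150, 135 and 71 on the control arrays against 179, 210 and 160 on the PTB shRNA arrays. The groups did not overlap, and the low empty vector array 3 stood apart from the other 2. The log2 difference was 0.61 ± 0.27 (SE, 95% interval -0.06 to 1.28; adjusted p = 0.231) and 0.32 without empty vector array 3.

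Hoxc6, which acts in limb-level motor neurons, measured 188, 153 and 186 on the control arrays against 227, 255 and 208 on the PTB shRNA arrays. Again every PTB shRNA value was the higher, with means of 176 ± 19.7 and 230.0 ± 23.6 (SD, n = 3) and a log2 difference of 0.36 ± 0.12 (SE, 95% interval 0.06 to 0.66). It did not pass over all genes tested (adjusted p = 0.142). Dividing each array by its own signal level brought the difference to 0.22 (adjusted p = 0.568), and the ratio to the level then overlapped between the groups.

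The 4 genes of the Hoxc run had differences of unlike sign on the same arrays. Relative to Hoxc9 on the same array, which cancels any scaling of whole arrays, Hoxc10 had log2 ratios of -0.18, -0.60 and -0.47 in the control cells, while the hairpin cells had -0.72, -1.05 and -0.75. For Hoxc6 the control ratios of -1.69, -2.08 and -1.93 stood against -1.40, -1.35 and -1.59. Hoxc10 was thus lower and Hoxc6 higher relative to Hoxc9 on each PTB shRNA array than on any empty vector array, by means of -0.43 and 0.45. Hoxc8 was also higher relative to Hoxc9 on each PTB shRNA array, by 0.75, which became 0.35 without empty vector array 3. These ratios were chosen after the values were seen and carry no test. How many other rows separate relative to Hoxc9 was not counted. By their own signals 10.3% of all rows separated as higher and 19.0% as lower. The ratios do not cancel shifts that depend on signal strength. After quantile normalization the log2 differences were 0.14 for Hoxc9, -0.31 for Hoxc10, 0.40 for Hoxc6 and 0.55 for Hoxc8.

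Hoxb8, whose loss in mice gives excessive grooming, measured 419, 379 and 260 on the control arrays against 552, 272 and 375 on the PTB shRNA arrays. The groups overlapped widely (log2 difference 0.14 ± 0.30, SE, 95% interval -0.61 to 0.89; adjusted p = 0.810), and the sign turned without PTB shRNA array 1 (-0.11). Hoxb7, its neighbour, measured 165, 171 and 273 and then 158, 162 and 202, a difference of -0.18 ± 0.22 (SE, 95% interval -0.71 to 0.36; adjusted p = 0.655). Both genes had their extreme value on a single array, Hoxb8 on PTB shRNA array 1 and Hoxb7 on empty vector array 3.

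Hoxa2, which patterns the hindbrain and the second pharyngeal arch, was the only gene outside clusters B and C with signal. It measured 65, 76 and 115 on the control arrays against 236, 143 and 100 on the PTB shRNA arrays. PTB shRNA array 3 lay below empty vector array 3, so the groups overlapped. The log2 difference was 0.75 ± 0.33 (SE, 95% interval -0.08 to 1.58; adjusted p = 0.233) and 0.45 without PTB shRNA array 1. Its ratio to the signal level ran from 0.782 to 1.59 with empty vector and from 1.23 to 2.21 with PTB shRNA.

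**Figure D2:**
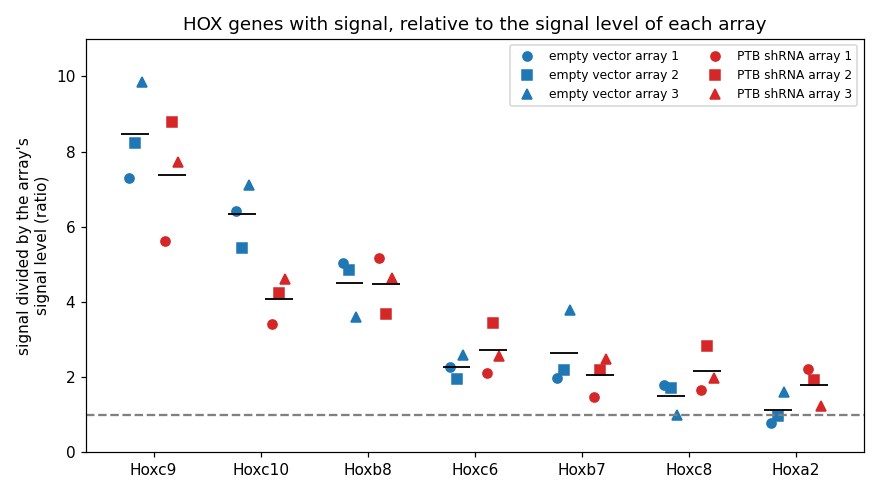
Signal of the 7 HOX genes with signal divided by the signal level of the same array, by group, with a point per array, a black bar at the mean of 3 arrays and a dashed line at 1, where a gene equals the level. Hoxc10 is lower on all 3 PTB shRNA arrays than on any empty vector array, while the groups of the other 6 genes overlap on this scale.

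Hoxc5, Hoxb3 and Hoxc4 came nearest to having signal without being above the level on all 3 arrays of a group. Hoxc5 measured 106, 91 and 67 on the control arrays against 101, 111 and 97 on the PTB shRNA arrays, above the level on 2 arrays of each group. Hoxb3 measured 103, 78 and 67 and then 107, 80 and 84, above the level on 1 array with empty vector and 2 with PTB shRNA. On average Hoxc5 was at 1.17 and Hoxb3 at 1.05 times the level. Hoxc4 measured 60, 55 and 66 and then 96, 88 and 55, above the level on 1 array, and was on average at 0.851 times the level. In the RefSeq order Hoxc5 adjoins Hoxc6, and Hoxc4 adjoins Hoxc5 on the head side.

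The other 22 HOX genes were above the level on none of the 6 arrays. All of cluster D was among them, with group means from 12 for Hoxd13 to 69.7 for Hoxd3, as were Hoxa4 to Hoxa11, where Hoxa5 and Hoxa11 had values below 0 on some arrays. Over the 25 genes without signal in either group the values ran from -9 to 111. Absence of signal here means only that a gene was not above the level on all 3 arrays of a group. It does not mean that its RNA was absent. The median of the means of these 25 genes was 43.3, and the median receptor row measured 9 to 17 by array. According to RefSeq 8 of the 32 genes overlap another HOX gene, among them Hoxb3 with Hoxb4, and probes may read RNA of a paralog, which was not tested.

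The sequence upstream was looked at where a reference window was at hand, which among the 7 genes with signal was the case for Hoxb8 and Hoxa2. The windows are shown because these 2 genes are a cluster B gene with signal on all arrays and the cluster A gene that met the signal rule in PTB shRNA cells alone. Hoxa2 was nevertheless above the level on empty vector array 3, at 1.59 times, against 1.23 on PTB shRNA array 3. Each holds 250 bases before and 50 after a listed start, from RefSeq (GRCm38.p6), with capitals for the PBX-HOX motif TGATNNAT, the TATA motif TATAAA and the CCAAT motif, all on either strand and without overlap here.
Hoxb8 (chr11:96281655-96281954, plus strand): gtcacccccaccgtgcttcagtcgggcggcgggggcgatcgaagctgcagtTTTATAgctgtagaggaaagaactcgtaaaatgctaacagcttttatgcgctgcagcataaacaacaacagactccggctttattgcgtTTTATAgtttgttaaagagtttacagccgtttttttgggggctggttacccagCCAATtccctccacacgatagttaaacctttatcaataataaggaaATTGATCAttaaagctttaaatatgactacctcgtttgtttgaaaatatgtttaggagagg
Hoxa2 (chr6:52164782-52165081, minus strand): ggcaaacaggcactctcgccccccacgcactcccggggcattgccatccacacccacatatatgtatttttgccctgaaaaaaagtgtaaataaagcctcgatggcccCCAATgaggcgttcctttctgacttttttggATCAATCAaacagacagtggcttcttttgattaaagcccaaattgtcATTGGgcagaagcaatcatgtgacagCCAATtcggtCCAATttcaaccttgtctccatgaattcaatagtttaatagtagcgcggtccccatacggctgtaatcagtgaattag
The Hoxb8 window holds 1 PBX-HOX match, at position -11 from the start, 2 TATA matches and 1 CCAAT match. The Hoxa2 window holds 1 PBX-HOX match, at -111, and 4 CCAAT matches. The 17 HOX genes with a window had 19 windows in all. Of these 19 windows 4 had a PBX-HOX match, for Hoxa2, Hoxb1, Hoxb8 and Hoxd11, and 8.85% of all 32851 windows did. A TATA match was found in 3 of the 19 and in 13.6% of all windows, and a CCAAT match in 11 of the 19 and in 37.4% of all windows. The 19 windows of these genes held a median of 15 CpG dinucleotides against 7 over all windows. Hoxb8 had 13 and Hoxa2 9, both under the median of the HOX windows.

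The design asks which RNAs change when PTB is reduced. No HOX gene passed over all genes tested, with 0 higher and 0 lower of 32 (limma, adjusted p from 0.0918), while 1.36% of all rows were called higher and 3.37% lower, 4.73% in all. After quantile normalization the HOX counts were again 0 and 0, against 2.94% of all rows higher and 2.85% lower, 5.79% in all. At an unadjusted p under 0.05, Hoxc6 was higher and Hoxc10 lower, 1 gene each, against 8.49% of all rows higher and 16.9% lower. The groups did not overlap for 2 genes that were higher, Hoxc6 and Hoxc8, and for 1 that was lower, Hoxc10, against 10.3% and 19.0% of all rows. In samples of many cells like these, fewer cells with a transcript and less of it per cell cannot be told apart.

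Dim HOX genes mostly had small positive differences, none of which passed. Among the 25 HOX genes without signal, 20 had a positive difference (80.0%), with a median of 0.21 on the log2 scale and a range from -0.36 to 0.72. Among all 6513 rows within the same range of mean signal, 73.4% were positive and the median was 0.18. Without PTB shRNA array 1 the median of the 25 genes was 0.06, and after quantile normalization it was 0.03, with 14 of 25 positive. Among the 7 genes with signal 4 differences were positive and 3 negative. Of the 4759 rows within their range of mean signal 39.3% were positive, and the median was -0.10. Hoxa2 and Hoxc8, both positive, counted among the 7 through PTB shRNA alone. The 4759 rows were chosen by mean signal over both groups, so the shares were not selected alike and carry no comparison. The share of positive differences among the dim HOX genes was thus close to that of other dim rows.

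**Figure D3:**
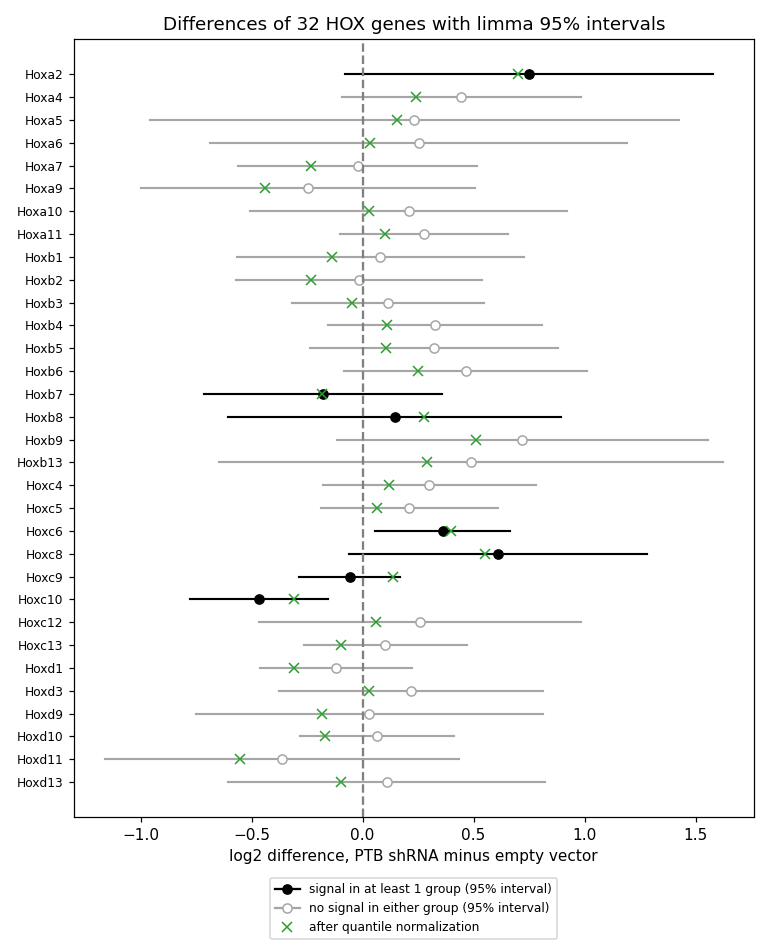
Log2 difference of PTB shRNA minus empty vector for the 32 HOX genes, listed by cluster and paralog group, with limma's 95% interval. Filled points are genes with signal in at least 1 group, open points have none, and crosses give the difference after quantile normalization. The intervals of Hoxc6 and Hoxc10 leave out 0, on opposite sides.

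HOX cofactors were mostly present. Of 11 measured TALE cofactors 9 had signal in both groups, and 0 rose and 0 fell, with a median difference of 0.02 beside 0.00 over all rows, where 57.8% had signal in empty vector and 57.6% with PTB shRNA. Among all rows 1.36% were called higher and 3.37% lower. After quantile normalization 1 cofactor was called higher and 0 lower, against 2.94% and 2.85% of all rows, and the median was 0.14. Meis1, which binds DNA with HOX and PBX proteins, measured 326, 335 and 389 on the control arrays against 718, 683 and 507 on the PTB shRNA arrays. Every PTB shRNA value was the higher, and the log2 difference of 0.82 ± 0.16 (SE) came close to the threshold (adjusted p = 0.0521), which it passed after quantile normalization (0.99, adjusted p = 0.0384). Pbx2 had the opposite sign, from 427 ± 93.5 to 248 ± 62.6 (SD, n = 3), a difference of -0.75 (adjusted p = 0.112).

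Nearly all measured chromatin regulators of the clusters had signal. Of 29 measured Polycomb genes 27 had signal in both groups and 0 rose and 0 fell, with a median of -0.16 that was -0.04 after quantile normalization. Over all rows 57.8% had signal in empty vector and 57.6% with PTB shRNA, and 1.36% were called higher and 3.37% lower. After quantile normalization 2 Polycomb genes were called higher, Phc3 and Cbx7, and 0 lower, against 2.94% and 2.85% of all rows. Rnf2, the ubiquitin ligase of Polycomb repressive complex 1, had the largest difference on the values as deposited, from 1220 ± 187 to 819 ± 33.2 or -0.56 on the log2 scale (adjusted p = 0.0747), and Rybp of the same complex measured -0.54 (adjusted p = 0.0929). After quantile normalization Rnf2 was at -0.36 while Phc3 was at 0.67 and Cbx7 at 0.63, so the larger differences were then positive. The trithorax list also held other activators, such as the demethylase gene Kdm6a, Dot1l and elongation factor genes, while Kmt2a, Kmt2c and Kmt2d were not measured. All 15 measured genes of this list had signal in both groups and 0 passed. Their median was -0.18 and became 0.01 after quantile normalization. Setd1b, a histone methyltransferase gene, differed by 0.53 (adjusted p = 0.244) and the elongation factor gene Aff1 by -0.42 (adjusted p = 0.187).

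Among 24 measured genes of retinoic acid, CDX and other upstream regulation, 10 had signal in empty vector and 14 with PTB shRNA, and 1 rose and 1 fell. Over all rows 57.8% had signal in empty vector and 57.6% with PTB shRNA, and 1.36% were called higher and 3.37% lower. Aldh1a3, a retinaldehyde dehydrogenase that makes retinoic acid, rose from 58, 53 and 56, all under the signal level, to 157, 160 and 98, all above it. Its log2 difference was 1.08 ± 0.19 (SE; adjusted p = 0.0425, and 0.0454 after quantile normalization). The zinc-finger factor gene Yy1 fell from 1406 ± 49.6 to 973 ± 29.9 (SD, n = 3), by 0.52 on the log2 scale (adjusted p = 0.0342), a call that ended after quantile normalization (adjusted p = 0.0836). The median of this list was 0.15, but 0.04 after quantile normalization, 0.00015 without PTB shRNA array 1 and -0.34 without the dimmest 50% of rows. The last of these leaves out the dim genes of the list, so it is the median of fewer genes.

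Of 20 measured neighbours 14 had signal in each group, 0 rose and 2 fell, with a median of 0.02. Over all rows 57.8% had signal in empty vector and 57.6% with PTB shRNA, and 1.36% were called higher and 3.37% lower. After quantile normalization 1 was called higher, Mtx2 (0.47, adjusted p = 0.0384), and 1 lower, Smug1, and the median was 0.15. The shares of all rows called were then 2.94% higher and 2.85% lower. Smug1, a uracil DNA glycosylase gene beyond the head end of cluster C, fell from 496, 542 and 634 to 308, 347 and 308, a log2 difference of -0.76 ± 0.12 (SE; adjusted p = 0.0367). Copz2, a coatomer gene beyond the head end of cluster B, fell from 556, 550 and 579 to 389, 301 and 306, or by 0.74 on the log2 scale (adjusted p = 0.0382, and 0.0504 after quantile normalization). The homeobox genes Evx1 and Evx2, which close the tail ends of clusters A and D, had no signal.

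Of 48 measured homeobox genes of the nervous system 28 had signal with empty vector and 26 with PTB shRNA, and 1 rose and 1 fell. Their median was 0.15 and became 0.09 after quantile normalization. Over all rows 57.8% had signal with empty vector and 57.6% with PTB shRNA, and 1.36% were called higher and 3.37% lower. Lhx9, a LIM-homeodomain gene, rose from 148, 127 and 130 to 258, 209 and 225 (0.71 ± 0.11 on the log2 scale, SE; adjusted p = 0.0367). Zeb1, a repressor with zinc fingers and a homeodomain, fell from 533 ± 25.5 to 389 ± 18.7 (SD, n = 3), by 0.44 on the log2 scale (adjusted p = 0.0492, and 0.127 after quantile normalization). Of 13 measured ParaHox and other HOX-like genes 4 had signal in each group and 0 passed, with a median of 0.10, and the widest differences were 0.92 for Gsx1 (adjusted p = 0.315) and -0.91 for Gbx1 (adjusted p = 0.120). With each array divided by its signal level, the median of all rows was -0.11, that of the TALE and neighbour lists -0.12, of the Polycomb list -0.30 and of the trithorax list -0.33. None of the 6 calls in these lists was left when any 1 array was taken out.

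**Figure D4:**
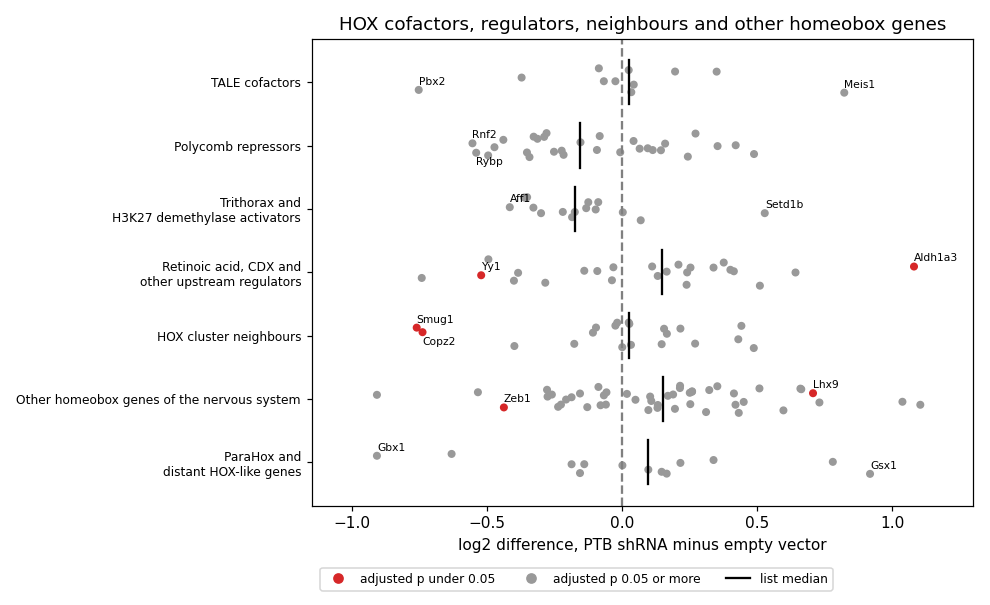
Log2 difference of PTB shRNA minus empty vector for each measured gene of 7 lists, with red points for adjusted p under 0.05 and a black bar at the list median. The called genes are Aldh1a3 and Lhx9 to the right of 0 and Yy1, Smug1, Copz2 and Zeb1 to the left.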

How the data were processed

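Total RNA was reduced for ribosomal RNA and labelled from 1 µg for Affymetrix mouse exon arrays, per the labels' protocols. The authors deposited 1 linear gene-level intensity per row and array, whole numbers from -616 to 23431, and the submitters' processing notes name GCOS 1.3. How probes were summarised and scaled was not given in the sources used here. Rows were named through the platform annotation, and of 17213 rows 15146 had 1 symbol, 1278 several and 789 none. Values below 0 were set to 0, log2(signal + 16) was taken, and all rows were fitted with limma 3.58.1 (R 4.3.3) on 6 arrays, with Benjamini-Hochberg adjustment over all rows at 0.05. Differences on this scale understate changes of dim genes. An exact test of 3 against 3 cannot go below 0.1, so limma carries the calls. The fit was tested on simulated data. The members and the 13 gene lists (262 entries, 218 measured) were chosen with earlier results of these data known. Named were Ptbp1, Ptbp2, HOX genes with signal or called, the 3 nearest to the level, from each list of partners, regulators, neighbours and homeobox genes up to 4 called genes or else the 2 of largest difference, and from each marker list up to 4 with signal, by highest mean. Evx1, Evx2, Phc3, Cbx7, Mtx2, Gata3, Pdgfra, Nefl, Nefm and Th were named after their values were seen. Alternatives were other normalizations, pseudocounts of 1 and 50, filters, eBayes settings, array weights, a replicate block, left-out arrays and other signal levels. RefSeq names and windows are of GRCm38.p6.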

Additional observations from a re-analysis of the deposited data

How the results depend on the processing

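The count of 0 HOX genes called higher held under every alternative, and the count called lower became 1 (Hoxc10) without the dimmest 50% of rows. Fewer rows were tested there, and the unadjusted limma p of Hoxc10 was also lower, 0.00476 against 0.0111 in the main fit. The number of HOX genes with signal in empty vector and PTB shRNA fell to 3 and 3 at the 99th receptor percentile and to 3 and 4 above the array median. It was 7 and 9 where 2 of 3 arrays sufficed. At fixed values, chosen after seeing the data, it was 5 and 6 for 100 and 3 and 4 for 200. With 1 array left out it ranged from 5 to 7 in empty vector and from 7 to 9 in PTB shRNA. Hoxa2 had no signal in PTB shRNA at the 99th percentile, the array median or either fixed value. Of the genes with signal, the difference turned in Hoxb7 without empty vector array 3 (0.039), in Hoxb8 without empty vector array 3 (-0.052), without PTB shRNA array 1 (-0.11) and with arrays divided by their signal level (-0.0012, also chosen after seeing the data), and in Hoxc9 after quantile normalization (0.14) and without empty vector array 3 (0.0011). With 1 array left out Hoxb7 ranged from -0.30 to 0.039 and Hoxb8 from -0.11 to 0.38. The cause was not tested. Ptbp1 kept its sign but did not pass with a pseudocount of 1 (-1.52), with a replicate block (-1.51), with arrays divided by their level (-1.66) or without any 1 array (-1.75 to -1.30). Nor did Ptbp2 with a replicate block (0.96), with arrays divided by their level (0.81) or without any 1 array (0.90 to 1.03). Genes called in the lists of partners, regulators, neighbours and homeobox genes, 2 higher and 4 lower, became 7 and 1 after quantile normalization, 4 and 2 with arrays centred on their median, 0 and 0 with a pseudocount of 1, 5 and 6 with a pseudocount of 50, 6 and 10 without the dimmest 30% of rows, 6 and 14 without the dimmest 50%, 9 and 9 with trend and robust settings, 6 and 9 with array weights, and 0 and 0 with the replicate block, with arrays divided by their level or without any 1 array. Same-numbered arrays deviated together with correlations of 0.23, 0.055 and 0.26, against -0.26 to 0.050 for arrays of unlike number. The labels do not say that the numbers are pairs, so the main fit left them out, and a pairing by number remains possible. The replicate block called no HOX gene, but Ptbp1 did not pass under it either. Every HOX gene had 1 row, so averaging rows could not be tried. With 3 arrays per group and no detection call, differences of dim HOX genes could not be resolved.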
